A study of Mus musculus with 6 samples.

Results

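Sesn1, Sesn2, Ddb2, Xpc, Polk, Rrm2b, Pidd1, Eda2r and Dram1 are known target genes of the transcription factor p53, grouped here under DNA repair and stress tolerance. The group is broad, as PIDD1 scaffolds a complex that activates caspase-2 and EDA2R is a receptor. These 9 genes were taken by symbol from the 16982 genes of the count table, and all 9 were among the 13386 genes with enough counts to be tested. RNA-seq compared 3 WT (Rnf20+/+) and 3 Rnf20 knockout (Rnf20-/-) libraries of mouse embryonic fibroblasts (MEF) on day 3 of reprogramming. Both genotypes carried the retroviral reprogramming factors OCT4, SOX2, KLF4 and C-MYC (OSKM). In the methods, infected cells were replated on feeder layers of MEF treated with mitomycin-C. Whether RNA of feeder cells is part of these libraries is not stated, and its part in the levels was not tested. The samples are of the C57BL/6 strain, and the knockout MEF came from Rnf20 Flox/Flox embryos with a ubiquitously expressed, tamoxifen-inducible Cre recombinase. According to the methods, the knockout was induced with 4-OH tamoxifen, while the labels list every sample as untreated. The text does not say whether the WT cultures carried the floxed alleles or Cre or received the drug, so these cannot be told apart from the loss of Rnf20. The labels do not say whether the replicates were separate cultures or embryos, so p-values measure only the spread between these samples.

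p53 is a transcription factor that is stabilised when DNA is damaged or cells are stressed, and it is held low by the ubiquitin ligase MDM2. Its targets do not only arrest or kill cells. The sestrins SESN1 and SESN2 restrain the growth kinase mTORC1 through the GATOR complexes and limit oxidative stress. DDB2 and XPC recognise DNA damage for nucleotide excision repair, and POLK copies past lesions that block replication. RRM2B is a small subunit of ribonucleotide reductase that supplies nucleotides for repair outside S phase. PIDD1 is the scaffold of the PIDDosome, which activates caspase-2. EDA2R is a receptor of the tumour necrosis factor receptor family that binds ectodysplasin A2. DRAM1 is a lysosomal membrane protein that acts in autophagy. In reprogramming, p53 is known as a barrier that limits the number of cells that become pluripotent.

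The deposited counts are whole numbers of reads per gene, with 20545442 to 21746898 counts in a library. Levels are given as CPM (counts scaled by the TMM-normalised library size), or as the deposited FPKM (scaled by gene length and library size) where genes are compared with one another. WT and knockout were compared by the quasi-likelihood test in edgeR, p-values were adjusted over the 13386 genes by the Benjamini-Hochberg method, and adjusted p-values under 0.05 were calls. "edgeR adjusted p" stands for that test and adjustment throughout, and each error printed beside a log2 fold change is its standard error (SE). A log2 fold change is knockout over WT, so a positive value is a higher level in knockout. Over all genes tested, 16.4% were called higher and 16.6% lower in knockout, and the median log2 fold change was -0.00032. Counts of calls in the lists below are to be read beside these shares. The targeted gene Rnf20 was at 107, 107 and 106 CPM in the WT libraries and at 18.7, 18.5 and 16.4 CPM in the knockout libraries. The knockout mean was 16.8% of the WT level (log2 fold change -2.57, edgeR adjusted p = 0.000163). In the paper, LoxP sites flank only some exons of Rnf20, while the counts are over the whole gene. This share is therefore not a measure of intact transcript.

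The libraries were not alike within the knockout group. A chi-square statistic of the counts, which is near 1 per gene for libraries that differ only by sampling, was 6.04 to 8.92 for pairs of WT libraries and 8.57 for knockout replicates 1 and 2, but 92.4 and 101 for knockout replicate 3 against the others. Knockout replicates 1 and 3 held 0 counts of the Y-linked gene Ddx3y, whose level was 94.4 to 128 CPM in knockout replicate 2 and the WT libraries. The 10 fibroblast markers summed to 30335 to 33097 CPM in WT and to 31976, 39856 and 21634 CPM in knockout replicates 1 to 3. All 10 were detected in every library. None was called higher and 2 were called lower. These were Thy1 (log2 fold change -1.11, edgeR adjusted p = 0.00251) and Pdgfra (-1.22, edgeR adjusted p = 0.0185), while 5 of the 10 had a positive log2 fold change. The 9 epithelial markers in the count table summed to 57.6 to 61.5 CPM in WT and to 78.2, 54.7 and 22.5 CPM in knockout. These sums hide opposite directions. Of the 6 tested, 1 had a positive log2 fold change, Krt19, which was called higher (1.14, edgeR adjusted p = 0.0274). The other 5 were negative, and among them Cldn3 was called lower (-2.16, edgeR adjusted p = 0.00614). The 6 endothelial markers summed to 48.6 to 59.0 CPM in WT and 32.3 to 67.3 CPM in knockout, nearly all of it from Tek, with Emcn at 0 in every library but knockout replicate 1. In bulk RNA, fewer cells of a type and less RNA per cell cannot be told apart.

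The sequences before the transcription starts of the 4 called genes are shown first, so that their letters can be set beside known sites of p53 and of stress-responsive factors. RefSeq windows (GRCm38.p6) were matched for 6 of the 9 genes, Sesn1, Sesn2, Polk, Pidd1, Eda2r and Dram1, in 8 windows, as Sesn1 and Polk have 2 each. The 250 bases before the start are printed 5′ to 3′ on the gene's strand, and capitals mark every match to a searched motif. The Sesn1 window lies before an internal start of the gene.
Sesn1, chr10:41887189-41887438, plus strand: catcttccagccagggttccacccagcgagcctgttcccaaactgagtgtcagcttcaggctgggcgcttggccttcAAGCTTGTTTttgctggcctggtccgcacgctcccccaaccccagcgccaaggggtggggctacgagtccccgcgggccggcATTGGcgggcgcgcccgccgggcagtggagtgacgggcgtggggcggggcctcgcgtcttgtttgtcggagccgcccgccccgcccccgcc
Sesn2, chr4:132510457-132510706, minus strand: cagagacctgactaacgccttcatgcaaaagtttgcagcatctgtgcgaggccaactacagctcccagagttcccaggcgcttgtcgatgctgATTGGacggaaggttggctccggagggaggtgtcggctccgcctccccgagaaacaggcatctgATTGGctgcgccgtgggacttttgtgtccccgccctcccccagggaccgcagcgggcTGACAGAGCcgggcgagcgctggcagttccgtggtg
Polk, chr13:96542580-96542829, minus strand: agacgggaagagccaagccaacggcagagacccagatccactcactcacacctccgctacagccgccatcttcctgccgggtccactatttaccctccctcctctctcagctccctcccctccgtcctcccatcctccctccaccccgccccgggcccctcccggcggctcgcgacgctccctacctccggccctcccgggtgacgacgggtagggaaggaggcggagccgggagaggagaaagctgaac
Eda2r, chrX:97377210-97377459, minus strand: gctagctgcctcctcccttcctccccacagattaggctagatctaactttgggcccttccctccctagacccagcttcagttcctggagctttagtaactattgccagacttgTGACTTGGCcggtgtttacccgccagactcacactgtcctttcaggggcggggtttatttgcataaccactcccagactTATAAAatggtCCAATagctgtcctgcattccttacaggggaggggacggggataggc

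Each window of 300 bases, 250 before and 50 after the start, was searched on both strands for the p53 decamer, TGATGCAA, TGACGTCA, TGACNNNGC, TATAAA and CCAAT. The p53 decamer is the repeat unit of the p53 response element, and it reads the same on both strands. TGATGCAA is a typical site of ATF4, TGACGTCA of CREB and its relatives, and TGACNNNGC the core of the antioxidant response element. TATAAA is the TATA box, and CCAAT the site of NF-Y. Of all 32851 windows 8.36% held the decamer, and 0.0731% held 2 decamers with a spacer of up to 13 bases. The Sesn1 sequence printed above holds 1 decamer, AAGCTTGTTT, at -173 to -164 from the start, and CCAAT on the reverse strand. The Sesn2 sequence holds no decamer. It has TGACAGAGC at -36 to -28, a match to TGACNNNGC, which 12.4% of all windows hold, and CCAAT at 2 places on the reverse strand. The Eda2r sequence has TGACTTGGC at -137 to -129, TATAAA at -58 to -53 and CCAAT at -47 to -43. TATAAA was found in 13.6% and CCAAT in 37.4% of all windows. With 5 CpG dinucleotides and 50.3% GC, the Eda2r window is poorer in CpG than the Sesn1, Sesn2 and Polk windows printed above, which have 31, 23 and 25. The Polk window printed above holds no match, while the second Polk window, inside the gene, holds 1 decamer at -231 to -222 and TGATGCAA, which 0.895% of all windows hold. Pidd1 and Dram1 had no match to any motif. For comparison, 1 window of Cdkn1a holds 2 decamers that form an element and the Mdm2 window holds 1. A match to these letters is a description and was not tested for binding.

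Of the 9 genes, 3 were called higher in knockout (Sesn2, Polk and Eda2r), 1 was called lower (Sesn1) and 5 were not called. The 4 of 9 called compare with 33% of all genes tested, so the number of calls does not set these genes apart. The median log2 fold change of the 9 was 0.46, against -0.00032 over all genes and 0.47 over 40 other p53 targets. The 3 knockout libraries all lay above the 3 WT libraries for 5 genes (Sesn2, Polk, Rrm2b, Pidd1 and Eda2r) and all below them for 2 (Sesn1 and Xpc), against 26.6% and 28.2% of all genes tested, while Ddb2 and Dram1 overlapped. Together 7 of 9 were separated, against 54.8% of all genes tested. At an adjusted p under 0.01, 2 genes were higher (Sesn2 and Eda2r), against 4.98% of all genes tested, and 0 were lower, against 4.89%. None of the 9 passed the thresholds of the methods (adjusted p under 0.01, absolute log2 fold change over 1 and mean FPKM over 1), which 3.59% of all genes tested passed. DESeq2 and limma also put 0 of the 9 past them, and 7 of the 9 had an unadjusted p under 0.05 in edgeR, against 45.6% of all genes tested.

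**Figure D1:**
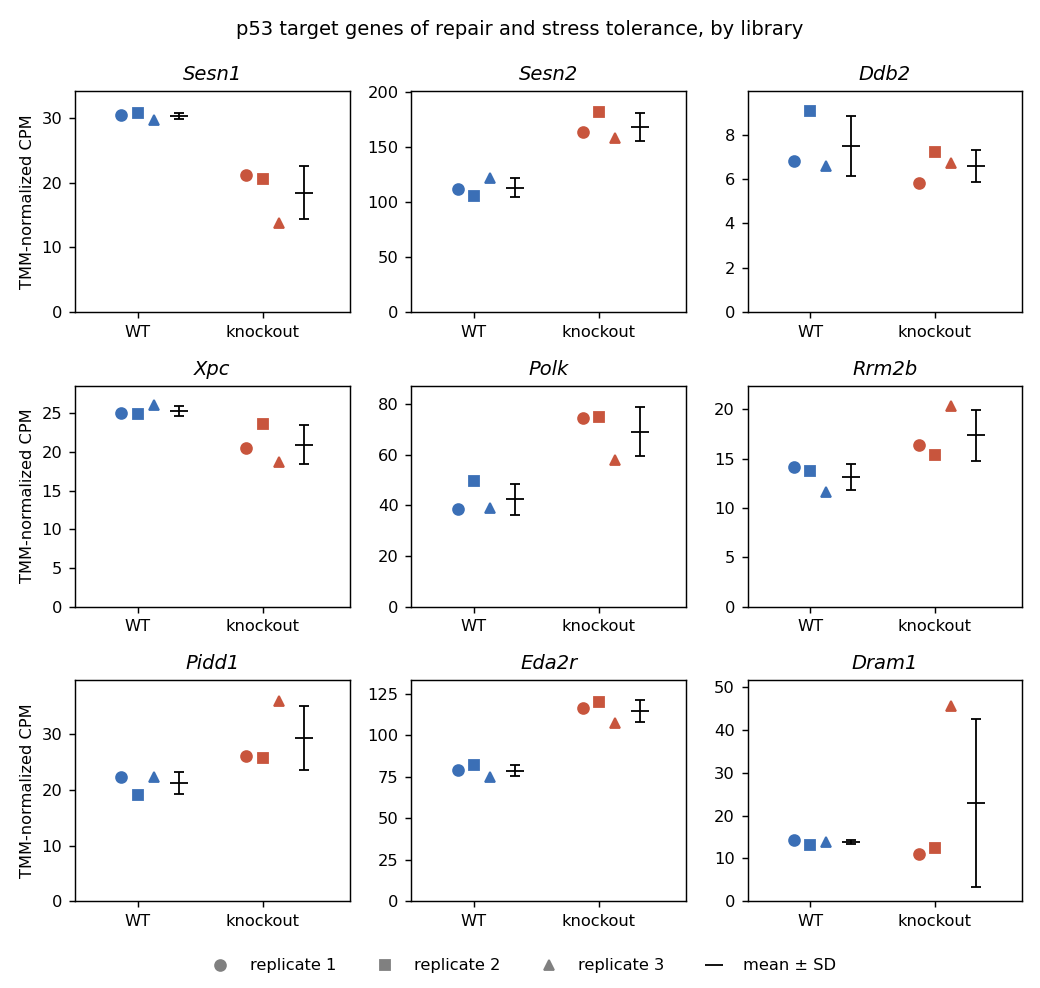
TMM-normalised CPM (vertical axes, from 0) of the 9 genes in the 3 WT (blue) and 3 knockout (red) libraries, with the symbol giving the replicate and the bars the mean and SD. All knockout points lie above all WT points for Sesn2, Polk, Rrm2b, Pidd1 and Eda2r and below them for Sesn1 and Xpc. The gap is narrow for Rrm2b and Xpc. The Dram1 mean is set by knockout replicate 3 at 45.6 CPM.

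Ordered by FPKM in WT, Sesn2 had the highest level at 34.9 ± 3.15 (SD, n = 3), followed by Eda2r at 16.8 ± 0.715, Sesn1 at 12.9 ± 0.235 and Polk at 10.5 ± 1.49. Pidd1 followed at 6.65 ± 0.622, Xpc at 6.12 ± 0.174 and Dram1 at 6.09 ± 0.273. Ddb2 at 4.49 ± 0.733 and Rrm2b at 3.76 ± 0.516 were the lowest. The WT libraries of neighbours in this order overlapped for Pidd1 and Xpc, for Xpc and Dram1, and for Ddb2 and Rrm2b, and were separate for the other neighbours. In knockout the first places stayed with Sesn2 at 51.1 ± 3.12 FPKM and Eda2r at 23.6 ± 3.21 FPKM, while the mean of Sesn1, at 7.81 ± 1.73 FPKM, came below those of Polk (17.1 ± 3.05 FPKM), Dram1 (9.80 ± 7.98 FPKM) and Pidd1 (9.05 ± 1.87 FPKM).

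The sestrin genes Sesn1 and Sesn2 moved in opposite directions. Sesn1 (ENSMUSG00000038332, chr10:41809935-41908424 of GRCm38, plus strand) was at 30.5, 30.8 and 29.8 CPM in WT replicates 1 to 3 and at 21.1, 20.6 and 13.7 CPM in knockout replicates 1 to 3. Every knockout library was below every WT library, and knockout replicate 3 was the lowest. Sesn1 fell to 60.9% of its WT mean, a log2 fold change of -0.71 (SE 0.168, edgeR adjusted p = 0.0210). Sesn2 (ENSMUSG00000028893, chr4:132492032-132510501, minus strand) was at 112, 106 and 122 CPM in WT and at 164, 183 and 159 CPM in knockout. All knockout libraries were above all WT libraries, and the knockout libraries spread no wider on the log2 scale than the WT libraries, 0.20 against 0.21. Sesn2 rose to 1.49 times its WT mean, a log2 fold change of 0.57 (SE 0.0886, edgeR adjusted p = 0.00684). The remaining paralog Sesn3, which is better known as a target of FOXO factors, was at 154 to 179 CPM in WT and 134 to 189 CPM in knockout, with a log2 fold change of 0.03 (95% interval -0.30 to 0.37, edgeR adjusted p = 0.864).

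The ratio of Sesn2 to Sesn1 in FPKM was 2.56, 2.55 and 2.99 in WT and 5.68, 6.13 and 8.48 in knockout. The ratio was chosen after the values were seen and is given without a test. Sesn1 lost its call when any single WT library was left out, with edgeR adjusted p = 0.0700, 0.0749 and 0.0739 without WT replicates 1, 2 and 3, and kept it without each knockout library. The call of Sesn2 held in each of these fits. Of 11 other tested genes of the sestrin and GATOR list, 2 were called higher, Sqstm1 (log2 fold change 0.80) and Sec13 (0.28), and 2 lower, Depdc5 (-0.58) and Keap1 (-0.27). SQSTM1 is an autophagy receptor that binds KEAP1, SEC13 is a subunit of GATOR2 and DEPDC5 of GATOR1. The median of these 11 genes was 0.03.

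ATF4, the transcription factor of the integrated stress response, is also known to induce Sesn2. Of 11 other tested ATF4 targets, 5 were called higher and 1 lower, against 16.4% and 16.6% of all genes tested. Their median log2 fold change was 0.33. The genes called higher were led by Nupr1 (1.57), Atf3 (1.43), Ddit3 (1.02) and Ppp1r15a (0.54). NUPR1 is a small stress-induced chromatin protein, ATF3 and DDIT3 are transcription factors of the same response, and PPP1R15A restores translation after stress. Ddit4, which restrains mTORC1 as the sestrins do, was called lower at -0.26. Nupr1 was at 97.3, 111 and 218 CPM in knockout replicates 1 to 3, highest in the library that stood apart. The part of ATF4 in the Sesn2 values was not tested.

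The damage recognition genes Ddb2 and Xpc were not called. Ddb2 (ENSMUSG00000002109, chr2:91211572-91236982, minus strand) was at 6.80, 9.07 and 6.60 CPM in WT and at 5.82, 7.22 and 6.72 CPM in knockout. The groups overlapped, and WT replicate 2 was the highest of all 6 libraries. The log2 fold change was -0.18 (95% interval -0.62 to 0.25, edgeR adjusted p = 0.456). Ddb2 shares 652 exonic bases, 23.8% of its exons, with Acp2 on the opposite strand, and the sources used here do not say whether reads were counted by strand, so reads there may not be told apart. Acp2 had a log2 fold change of 0.30 (edgeR adjusted p = 0.0607). Ddb1, the partner of DDB2 in the damage-binding complex, was at 971 to 1021 CPM in WT and at 1068, 1108 and 780 CPM in knockout, with a log2 fold change of -0.02 (95% interval -0.35 to 0.31).

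Xpc (ENSMUSG00000030094, chr6:91489305-91515888, minus strand) was at 25.0, 24.9 and 26.1 CPM in WT and at 20.5, 23.6 and 18.6 CPM in knockout. The knockout libraries were all lower, with knockout replicate 2 the nearest to WT. Its knockout mean came to 82.7% of the WT level, and the log2 fold change was -0.27 (95% interval -0.53 to -0.02, edgeR adjusted p = 0.0935). XPC works in a complex with RAD23B and centrin-2. Rad23b was at 264 to 283 CPM in WT and 361 to 366 CPM in knockout and rose by 0.42 on the log2 scale (SE 0.0634, edgeR adjusted p = 0.00657). Cetn2, which encodes centrin-2, had a log2 fold change of -0.06 (edgeR adjusted p = 0.636). The FPKM ratio of Xpc to Rad23b, again chosen after the values were seen, was 0.0757 to 0.0838 in WT and 0.0483 to 0.0559 in knockout.

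Of 29 other tested nucleotide excision repair genes, 3 were called higher and 7 lower, with a median log2 fold change of -0.06. The genes called higher were Ercc3 (0.45), Rad23b (0.42) and Gtf2h5 (0.35). ERCC3 and GTF2H5 are subunits of TFIIH, which opens DNA around the lesion. The lower calls were led by Lig1 (-1.62), Rpa2 (-1.18), Rpa1 (-0.68) and Rpa3 (-0.65). Ligase 1 and the RPA subunits also serve DNA replication. All 12 proliferation markers were called lower, with sums of 1632 to 1686 CPM in WT and of 703, 611 and 232 CPM in knockout replicates 1 to 3. Their part in these differences was not tested.

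Polk (ENSMUSG00000021668, chr13:96480690-96542579, minus strand) had the largest rise among the called genes of the 9. It was at 38.7, 49.6 and 38.8 CPM in WT and at 74.5, 74.9 and 58.0 CPM in knockout. The groups did not overlap, and knockout replicate 3 lay nearest to WT. Polk rose to 1.63 times its WT mean, a log2 fold change of 0.71 (SE 0.144, edgeR adjusted p = 0.0141). The call was lost without WT replicate 1 (edgeR adjusted p = 0.0593) and without WT replicate 3 (edgeR adjusted p = 0.0675).

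None of the other translesion polymerase genes named here was called higher. Polh, which copies past ultraviolet-induced dimers and is itself a p53 target, was at 26.2, 37.7 and 32.2 CPM in WT and at 25.3, 17.1 and 16.9 CPM in knockout. Its knockout libraries were all below WT, and its log2 fold change was -0.70 (SE 0.203, edgeR adjusted p = 0.0397). Poli had a log2 fold change of -0.43 (edgeR adjusted p = 0.0833), Rev3l, the catalytic subunit of polymerase zeta, of -0.32 (edgeR adjusted p = 0.295), and Rev1, the scaffold of the group, of -0.04 (edgeR adjusted p = 0.753). Of 12 other tested genes of the list, 1 was called higher and 4 lower, with a median of -0.35. The higher one was the ubiquitin-conjugating enzyme gene Ube2a (0.54), and beside Polh the lower ones were Pcna (-1.08), Rad18 (-1.0) and Usp1 (-0.86), which encode the sliding clamp and the enzymes that attach and remove its ubiquitin. The FPKM ratio of Polk to Polh was 1.02, 0.948 and 0.830 in WT and 2.02, 3.10 and 2.74 in knockout, a ratio chosen after the values were seen.

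Rrm2b (ENSMUSG00000022292, chr15:37923952-37961318, minus strand) was at 14.1, 13.7 and 11.6 CPM in WT and at 16.3, 15.4 and 20.3 CPM in knockout. The groups did not overlap, with knockout replicate 3 the highest and WT replicate 3 the lowest. Its knockout mean was 1.32 times that of WT, and the log2 fold change of 0.40 did not pass the test (95% interval 0.06 to 0.74, edgeR adjusted p = 0.0727). Of the exonic bases of Rrm2b, 8.04% overlap the antisense gene Gm49085, which was not analysed here.

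The genes of the S-phase form of the enzyme were called lower. Rrm1, the large subunit shared by both forms, was at 193 to 202 CPM in WT and at 132, 111 and 68.5 CPM in knockout, and fell by 0.94 on the log2 scale (SE 0.219, edgeR adjusted p = 0.0207). Rrm2, the small subunit of cycling cells, was at 108, 109 and 108 CPM in WT and at 61.2, 50.3 and 34.0 CPM in knockout, and fell by 1.16 (SE 0.199, edgeR adjusted p = 0.00862). Both were lowest in knockout replicate 3, where all 12 proliferation markers were lowest too. The FPKM ratio of Rrm2b to Rrm2, chosen after the values were seen, was 0.0620, 0.0621 and 0.0481 in WT and 0.131, 0.141 and 0.252 in knockout.

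Pidd1 (ENSMUSG00000025507, chr7:141438113-141444025, minus strand) was at 22.4, 19.1 and 22.4 CPM in WT and at 26.2, 25.8 and 36.0 CPM in knockout. All knockout libraries were higher, and knockout replicate 3 stood above the others. The log2 fold change was 0.46 (95% interval 0.09 to 0.83, edgeR adjusted p = 0.0593). Without knockout replicate 3 it was 0.29 and was called (edgeR adjusted p = 0.0296), and DESeq2 called it on all 6 libraries (adjusted p = 0.0371).

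The partners of PIDD1 in the PIDDosome were both called lower. Casp2, the caspase the complex activates, was at 36.6, 37.7 and 36.7 CPM in WT and at 25.1, 22.0 and 16.7 CPM in knockout, and fell by 0.80 on the log2 scale (SE 0.148, edgeR adjusted p = 0.0106). Cradd, the adaptor between PIDD1 and caspase-2, was at 5.47, 5.22 and 7.21 CPM in WT and at 2.67, 3.37 and 4.19 CPM in knockout, and fell by 0.81 (SE 0.237, edgeR adjusted p = 0.0409). For both partners every knockout library was below every WT library, the reverse of the order for Pidd1.

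**Figure D2:**
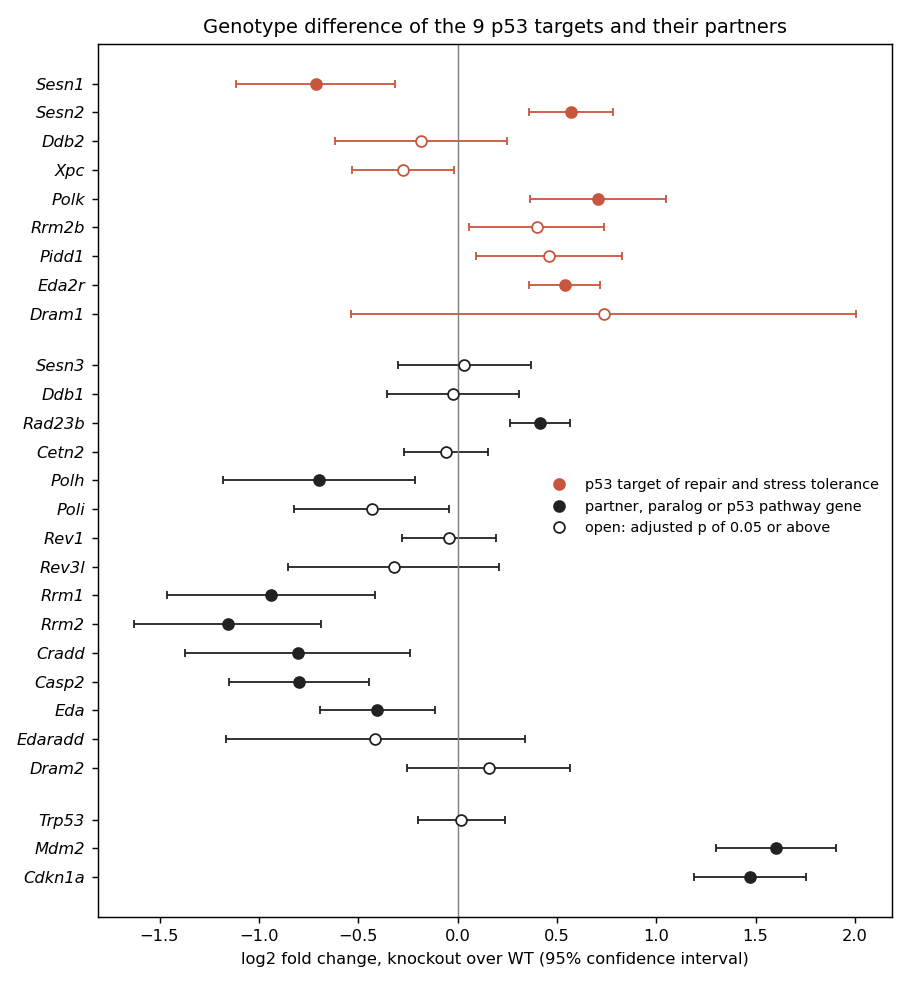
Log2 fold change of knockout over WT (horizontal axis) with its 95% confidence interval for the 9 genes (red), for their partners and paralogs and for Trp53, Mdm2 and Cdkn1a (black), with open points for an adjusted p of 0.05 or above. Sesn2, Polk and Eda2r lie to the right of 0, while Polh, Rrm1, Rrm2, Cradd, Casp2 and Eda lie to its left.

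Eda2r (ENSMUSG00000034457, chrX:97333840-97377216, minus strand) was at 79.2, 82.2 and 75.3 CPM in WT and at 116, 120 and 108 CPM in knockout. The groups were well apart, and each was narrow. Eda2r rose to 1.45 times its WT mean, a log2 fold change of 0.54 with the smallest standard error of the 9 genes (SE 0.0750, edgeR adjusted p = 0.00533). The call held without each of the 6 libraries in turn. The gene is X-linked, and the level in knockout replicate 2, which held Y-linked counts as the WT libraries did, was the highest of the knockout libraries. The part of the Y-linked state in the Eda2r values was not tested.

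Eda, which encodes ectodysplasin A, was at 11.2, 12.9 and 10.8 CPM in WT and at 8.88, 8.36 and 9.14 CPM in knockout. Eda was called lower at -0.40 (SE 0.122, edgeR adjusted p = 0.0438). Counts per gene do not separate the A2 form from other forms. The related receptor gene Edar had 0 counts in the WT libraries and at most 3 counts in a knockout library, and was not tested. Its adaptor gene Edaradd was at 1.14 to 2.04 CPM in WT and 1.10 to 1.47 CPM in knockout (edgeR adjusted p = 0.342). Of the 4 other tested genes of ectodysplasin signalling, Eda was the only call.

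Dram1 (ENSMUSG00000020057, chr10:88322804-88379080, minus strand) was at 14.3, 13.2 and 13.9 CPM in WT and at 11.1, 12.3 and 45.6 CPM in knockout. Knockout replicates 1 and 2 were below every WT library, and knockout replicate 3 was far above them. From the WT mean, the knockout libraries deviated by -0.31, -0.16 and 1.72 on the log2 scale. The log2 fold change of 0.74 therefore carried the largest standard error of the 9 genes (SE 0.535, 95% interval -0.54 to 2.01, edgeR adjusted p = 0.318), and without knockout replicate 3 it was -0.23 (edgeR adjusted p = 0.0987).

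Macrophage markers were also high in that library. The 8 markers summed to 43.4, 90.2 and 72.7 CPM in WT and to 72.9, 45.1 and 232 CPM in knockout replicates 1 to 3, and 7 of the 8 were highest in knockout replicate 3. Lyz2 was at 159 CPM and Adgre1 at 31.9 CPM there, none of the 7 tested markers was called, and only Aif1 was at 0 in any library, WT replicate 1. Their part in the Dram1 value was not tested.

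The paralog Dram2 was at 20.9 to 21.8 CPM in WT and at 22.1, 19.0 and 30.3 CPM in knockout, with a log2 fold change of 0.16 (edgeR adjusted p = 0.505). It too was highest in knockout replicate 3. The FPKM ratio of Dram1 to Dram2, chosen after the values were seen, was 0.359 to 0.398 in WT and 0.315, 0.373 and 1.12 in knockout. Of 21 other tested autophagy genes, 10 were called higher and 0 lower, against 16.4% and 16.6% of all genes tested. All 21 had a positive log2 fold change, against 6690 of all 13386 genes, with a median of 0.30. With Dram1 included, the list summed to 2227 to 2328 CPM in WT and to 3017, 3141 and 3955 CPM in knockout replicates 1 to 3. The calls were led by Lamp1 (1.0), Gabarapl2 (0.93), Sqstm1 (0.80) and Atg12 (0.66), which encode a lysosomal membrane protein, a protein of the autophagosome membrane, the receptor named above and the ubiquitin-like protein that joins ATG5.

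**Figure D3:**
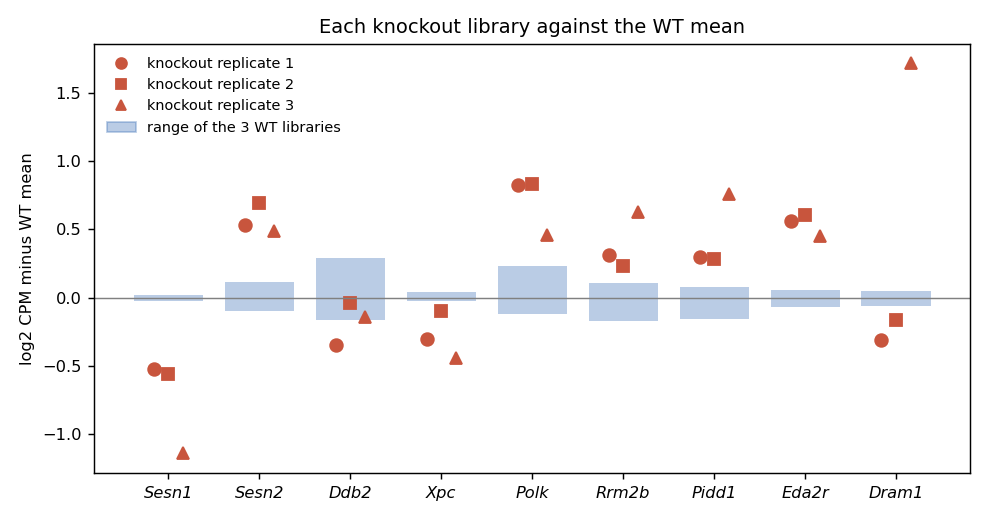
Log2 CPM of each knockout library minus the WT mean (vertical axis) for the 9 genes, with the blue band spanning the 3 WT libraries. Knockout replicate 3 (triangle) is the furthest from the WT mean for Sesn1, Xpc, Rrm2b, Pidd1 and Dram1, at 1.72 for Dram1, and the nearest for Sesn2, Polk and Eda2r.

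The 9 genes fell into different patterns across the knockout libraries. Knockout replicate 3 was the furthest from the WT mean for 5 genes (Sesn1, Xpc, Rrm2b, Pidd1 and Dram1), knockout replicate 2 for 3 (Sesn2, Polk and Eda2r) and knockout replicate 1 for Ddb2. The genes called higher were thus nearer to WT in knockout replicate 3 than in the other knockout libraries. For Sesn2 the deviations were 0.53, 0.69 and 0.49 on the log2 scale in knockout replicates 1 to 3, for Polk 0.82, 0.83 and 0.46, and for Eda2r 0.56, 0.61 and 0.45. The opposite held for Sesn1, which deviated by -0.52, -0.56 and -1.14.

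The p53 gene itself was not called. Trp53 was at 142 to 150 CPM in WT and at 137, 139 and 166 CPM in knockout, with a log2 fold change of 0.02 (95% interval -0.20 to 0.24, edgeR adjusted p = 0.888). Mdm2, the negative regulator and target of p53, was at 125 to 133 CPM in WT and at 352, 350 and 467 CPM in knockout, and Cdkn1a, which encodes the cell cycle inhibitor p21, was at 439 to 479 CPM in WT and at 1186, 1180 and 1508 CPM in knockout. Mdm2 rose by 1.60 (edgeR adjusted p = 0.00178) and Cdkn1a by 1.47 (edgeR adjusted p = 0.00182) on the log2 scale, beside the 0.54 to 0.71 of Sesn2, Polk and Eda2r. Of the 40 other p53 targets, all tested, 23 were called higher and 6 lower, against 16.4% and 16.6% of all genes tested. The higher calls were led by Pmaip1 (1.98), Mdm2 (1.60), Cdkn1a (1.47) and Perp (1.42), and the lower calls by Pcna (-1.08), Psrc1 (-0.81), Polh (-0.70) and Ckap2 (-0.69). PMAIP1 and PERP promote cell death, PCNA and POLH act in DNA synthesis, and PSRC1 and CKAP2 are proteins of the mitotic spindle. Genes of both directions are therefore found among known p53 targets, as they are among the 9.

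The 3 tested genes with the profiles nearest to Polk over the 6 libraries were Adssl1, Nes and Gm14137. Their root mean square differences from Polk in log2 CPM, each profile centred on its WT mean, were 0.0743, 0.108 and 0.111. Nearest to Sesn1 were Syne3, Rad21 and Ckap2, with differences of 0.0114, 0.0362 and 0.0368. RAD21 is a subunit of cohesin and SYNE3 a protein of the nuclear envelope. Ckap2 is the only one of these 6 genes on the list of other p53 targets.

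When the presence of Y-linked genes, which differs between the knockout libraries, was added as a term, none of the 9 genes was called. In that fit knockout replicate 2 alone shares the Y-linked state of the WT libraries, so the genotype estimate rests on that library. The log2 fold changes were then -0.56 for Sesn1, 0.69 for Sesn2, 0.82 for Polk and 0.61 for Eda2r. Knockout replicate 2 itself deviated from the WT mean by -0.56, 0.69, 0.83 and 0.61 for these genes. The fit therefore cannot show what remains of the difference after adjustment for the Y-linked state. Dram1 was at -0.16 with the term, also the deviation of knockout replicate 2.

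**Figure D4:**
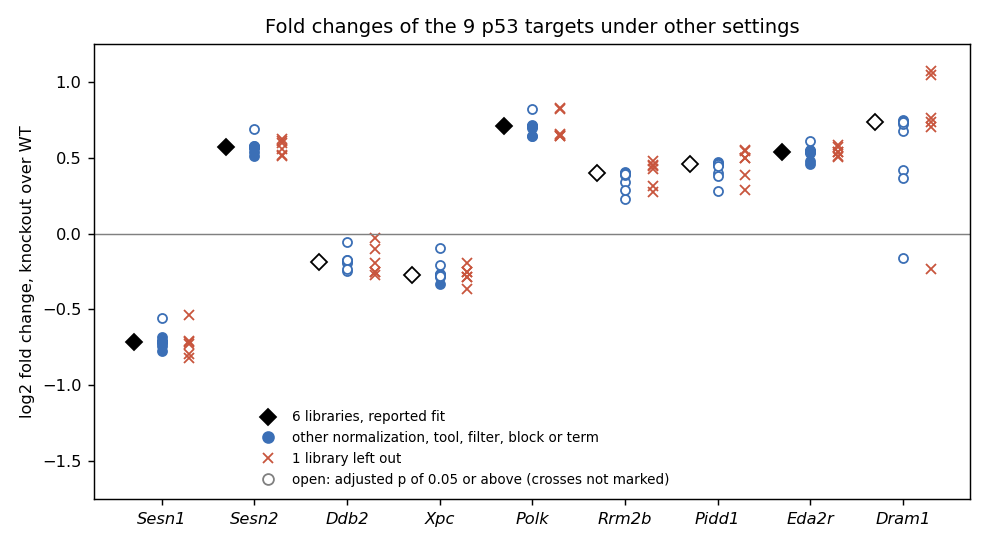
Log2 fold change of knockout over WT (vertical axis) of the 9 genes with all 6 libraries as reported (black diamonds), under other normalisations, tools, filters, a replicate block or a Y-linked term (blue circles) and with 1 library left out (red crosses). Open diamonds and circles have an adjusted p of 0.05 or above. Dram1 spans -0.23 to 1.07, and the other 8 genes keep their sign throughout.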

How the data were processed

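RNA-seq of 3 WT and 3 Rnf20 knockout samples was analysed, with genotype and replicate number from the sample titles. The authors deposited raw counts per gene, whole numbers without normalisation, and FPKM values from Cufflinks 2.1.1 for 12633 genes after alignment with HISAT2 2.1.0 to GRCm38/mm10. The counting program and its strand setting are not given in the sources used here. The authors also deposited the log2 fold changes and adjusted p-values of their own comparison, which were not used. That comparison was made from these values by a test that is not named. Libraries held 20545442 to 21746898 counts, and 3 counts equal about 0.142 to 0.143 CPM, a floor for counting error only.

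Counts were normalised by TMM, filtered with filterByExpr and compared with the quasi-likelihood test of edgeR 4.0.16 in R 4.3.3, without covariates and with Benjamini-Hochberg adjustment over 13386 genes. Log2 CPM values use a prior count of 2. The members and gene lists were chosen with earlier results of these data known, and lists are described by counts and medians without a test. Named are the 9 genes, Rnf20, Trp53, Mdm2, Cdkn1a, the paralogs and partners, Ddx3y and single cell type markers. Also named are up to 4 called genes of each list in each direction with the largest changes. The 3 profiles nearest to the called gene with the largest rise and the largest fall are named too. A result under this naming is left out here. Positions and exon overlaps came from GENCODE M21 (GRCm38), and promoter windows from RefSeq (GRCm38.p6). As alternatives served DESeq2 1.42.0, limma 3.58.1 on log2(FPKM + 1), library size only, RLE size factors, other filters, a stricter adjusted p, a replicate block, a term for Y-linked genes, and each library left out. In simulated counts of 3 against 3 libraries with 13270 genes tested, edgeR called 90.9% of 99 genes changed by 2 (log2). It called 63% of 100 genes changed by 1 (log2), and 11 unchanged genes. The simulated libraries shared a common spread per gene, so none stood apart as knockout replicate 3 did. Changes below 1 were not simulated, so these shares do not give the power for the 9 genes.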

Additional observations from a re-analysis of the deposited data

How the results depend on the processing

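Of 126 values of the 9 genes under 14 alternatives, 111 kept direction and call, 9 lost the call, 4 gained it and 2 reversed, both for Dram1 (-0.16 with the Y-linked term and -0.23 without knockout replicate 3, within -0.23 to 1.07 over the fits with 1 library left out). With the Y-linked term 0 genes of the 9 were called higher, 0 lower, and 7 of the 127 tested genes of the lists for repair, autophagy, stress and p53 (66 as reported). The number called lower was 2 with library size only (Xpc joined Sesn1 at -0.34), 0 at an adjusted p under 0.01, and 0 to 2 with 1 library left out. Without knockout replicate 2 Xpc was called at -0.37. These lists held 30 to 77 calls with 1 library left out, the fewest without WT replicate 3 and the most without knockout replicate 3. The causes were not tested. Sesn2 and Eda2r were called in 13 of 14 alternatives and lost the call with the Y-linked term.

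With library size only, the median of all genes moved to -0.06 and the calls over all genes were 1750 higher and 2684 lower, against 2195 and 2218. Over all genes 4413 were called as reported, 1947, 1615 and 1396 without WT replicates 1 to 3, and 3748, 3254 and 6510 without knockout replicates 1 to 3. Deviations from the group means correlated by -0.066, 0.037 and 0.011 for equal replicate numbers and by -0.069 to 0.072 for unequal ones. These values show no sign of pairing. They cannot exclude it, as each mean came from 3 libraries and knockout replicate 3 stood apart. With a replicate block the calls of the 9 genes were again 3 higher and 1 lower, Rnf20 was at -2.58, these lists held 50 calls, and 2875 genes were called in all.

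With 3 libraries a group, knockout replicate 3 apart and mixed Y-linked states among knockouts, changes below about 1 on the log2 scale are measured with limited power.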
